A study of Mus musculus with 13 samples.

Results

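The comparison described here sets gastrocnemius muscle of mice that carry a transgene for FOXM1-dNdK against gastrocnemius of mice without it, using the 7 muscle libraries of a series of 13. The members were taken from the sample titles: 3 libraries are titled skeletal muscle FoxM1-dNdK and 4 skeletal muscle Rosa26. The dNdK mice have the labelled genotype GFP-FOXM1dNdKtg/+ Rosa26-rtTAtg/+, and the Rosa26 mice have GFP-FOXM1dNdK-/- Rosa26-rtTAtg/+. Both groups therefore carry rtTA, the doxycycline-dependent transactivator, and only the dNdK mice carry the GFP-tagged FOXM1-dNdK gene. All mice are labelled as strain FVBxC57BL/6 and aged 88 weeks. The labels name no sex, no sequencing run and no doxycycline treatment. They list separate samples without stating that each came from its own animal, so p-values measure the spread between these samples. The other 6 libraries are of aorta, 4 Rosa26 and 2 dNdK.

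FOXM1 is a forkhead transcription factor of dividing cells, where it drives genes of the G2 and M phases of the cell cycle through promoters that carry CHR elements. The dNdK form lacks the amino-terminal stretch that represses the protein and the KEN box through which it is degraded, so it is more active and more stable than the full-length protein. The gastrocnemius is a calf muscle made mainly of fast fibres, large postmitotic cells that burn glycogen by glycolysis, and it also holds capillaries, fibroblasts, tendon, nerve, immune cells and fat.

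RNA of each sample was amplified with a primer pool that reads 1 short stretch of each targeted transcript, and the deposited values are read counts for 19838 genes, of which 19636 matched a RefSeq symbol. The muscle libraries held 6792153 to 13683952 gene counts. Levels are given as CPM, a gene's count relative to the library's total of gene counts, after scaling by TMM (trimmed mean of M-values), which sets the libraries so that most genes match. The targeted gene could not check the labels: Foxm1 had 1, 1, 1 and 3 counts in Rosa26 1 to 4 and 1, 0 and 3 in dNdK 1 to 3, too few to test. The sources used here do not say whether its amplicon lies in the transgene. The tissue label held, with the 31 genes of a fast fibre list summing to 317344 to 361181 CPM in Rosa26 and to 359284, 293027 and 216282 CPM in dNdK 1 to 3.

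The dNdK libraries were less alike than the Rosa26 libraries, with Spearman's rho of 0.744 to 0.827 between pairs against 0.881 to 0.961, across well-counted genes. Library dNdK 3 held RNA of fat: the 22 genes of a white adipocyte list summed to 34618 CPM there and to 2146 to 5953 CPM in the other 6 libraries. The 50 genes with the highest mean CPM over the 7 libraries took 35.5% of the counts of dNdK 3, against 43.0% to 48.0% elsewhere. The TMM factor of dNdK 3, 1.17, was the highest. Library dNdK 1 had the highest B and plasma cell, interferon and G2/M scores of the 7, and 2.56% of its reads lay outside genes, against 1.28% to 1.86% in the others. Library dNdK 2 was close to Rosa26 2 and 3, with a rho of 0.953 and 0.957, and less so to Rosa26 1 and 4, at 0.877 and 0.892. Against dNdK 1 and dNdK 3 its rho was 0.827 and 0.812. The controls were split as well: rho was 0.945 between Rosa26 1 and 4 and 0.961 between Rosa26 2 and 3. Across these pairs it was 0.881 to 0.898. These 7 libraries share the same genes and panel, so the values describe likeness only.

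**Figure D1:**
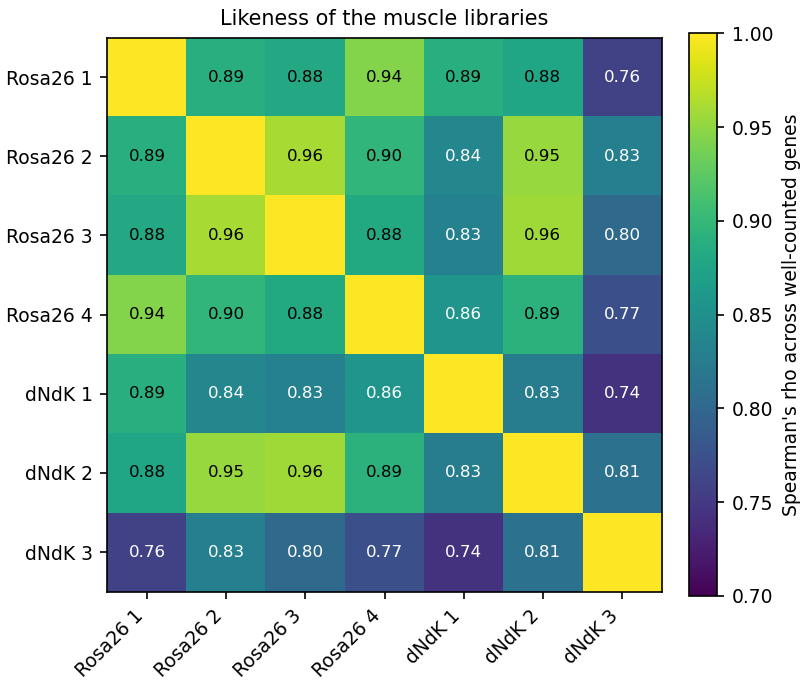
Spearman's rho between each pair of the 7 muscle libraries across well-counted genes (mean of at least 20 CPM), with colour and number giving rho. The 3 dNdK libraries do not form a block: dNdK 2 sits with Rosa26 2 and 3 at 0.953 and 0.957, while dNdK 1 and dNdK 3 are at 0.744 to each other.

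No gene passed the test. The edgeR quasi-likelihood test with Benjamini-Hochberg adjustment covered 10491 genes in the 7 libraries and called 0 at an adjusted p threshold of 0.05, with a smallest adjusted p of 0.656. Without dNdK 3 it covered 10629 genes and called 0, with a smallest adjusted p of 0.973. At an unadjusted p under 0.05, 570 genes were higher in dNdK (5.43% of those tested) and 222 lower (2.12%), 792 in all (7.55%). Without dNdK 3 those numbers were 248 (2.33%) and 192 (1.81%), 440 in all (4.14%). The limma-voom test called 0 genes and had 571 at an unadjusted p under 0.05. DESeq2 called 7 genes, of which Gpr157, Rtraf and Cops8 were higher and Mxra8, Rbm24, Ostn and Ntn4 lower. The edgeR test called 3 genes, Cops8, Rtraf and Gpr157, once dNdK 1 was left out. In what follows "higher" and "lower" describe levels and estimates, and no edgeR test of the 7 libraries stands behind them.

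Well-counted genes, those with a mean of at least 20 CPM over the 7 libraries, numbered 4768. This mean covers both groups, so a gene can pass through the group where it is high. Tinagl1, Plin5, Egfl7, Mgll and Ucp1 had Rosa26 means below 20 CPM, and Ntn4 had a dNdK mean below it. In 87 of them (1.82%) every dNdK library lay above every Rosa26 library, and in 219 (4.59%) every dNdK library lay below. The balance turned with the scaling: in plain CPM, without TMM factors, 210 (4.38%) lay above and 100 (2.09%) below, so that 67.7% of these genes were higher in place of 28.4%. Of the 87 genes 82 were also above in plain CPM, and of the 219 genes 93 were also below. Fitting without scaling factors moved the median log2 fold change of all tested genes by 0.13, from 0.03 to 0.15. Every direction below is therefore relative to the bulk of genes. Without dNdK 3, 225 well-counted genes (4.72%) lay above and 373 (7.82%) below.

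Library dNdK 2 was the nearest to the controls in 55 of the 87 higher genes and in 134 of the 219 lower genes. Library dNdK 3 was the farthest in 49 and 99 of them, and dNdK 1 in 32 and 91. The lower genes were more frequent among genes with high counts. Of the 86 genes with a mean of at least 1000 CPM, 11 (12.8%) were lower and 0 higher, whereas of the 2306 genes from 20 to 50 CPM 70 (3.04%) were lower and 55 (2.39%) higher. At the edge of the 20 CPM rule, Med4 and Mus81 were just inside at 20.05 and 20.37 CPM, and Mtss1 and Ncoa3 just outside at 19.81 and 19.64 CPM.

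**Figure D2:**
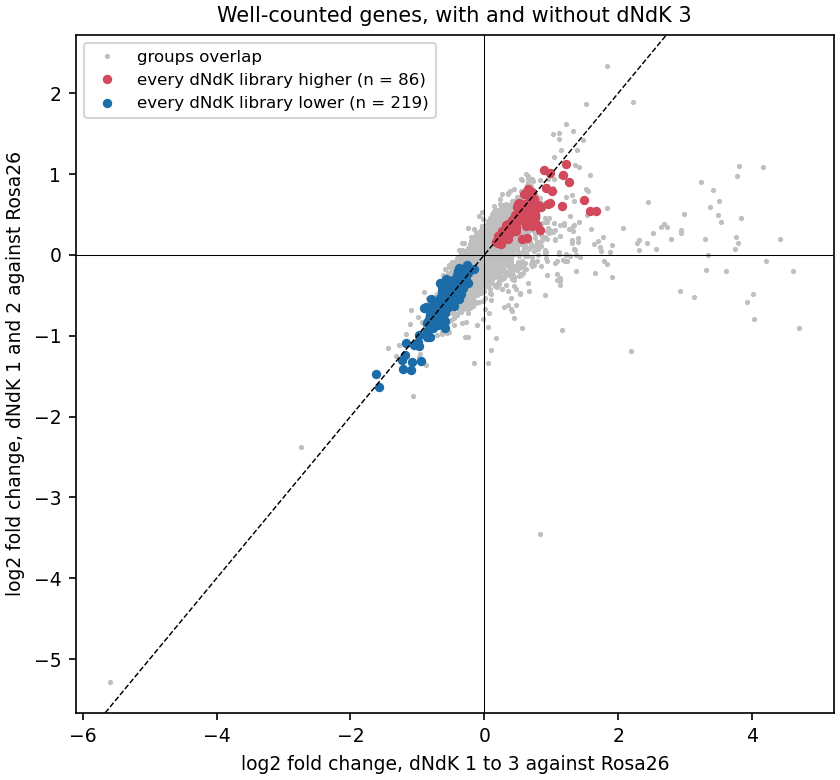
The log2 fold change of dNdK against Rosa26 in well-counted genes, with all 3 dNdK libraries on the horizontal axis and with dNdK 1 and 2 alone on the vertical axis. Coloured points are genes whose groups do not overlap, 219 lower and 86 of the 87 higher (Ucp1 was not tested), and the cloud to the right along the horizontal line is genes that are high in dNdK 3 only.

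The leading lower genes were taken by rule, as the 12 whose larger unadjusted p of the fits with and without dNdK 3 was smallest. In each of them the 3 dNdK libraries lay below the 4 Rosa26 libraries in plain CPM too. The adjusted p of edgeR was 0.656 for all 12 in the 7 libraries and 0.973 without dNdK 3. Fold changes below are log2 values with their standard error (SE), for dNdK against Rosa26.

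Several of these genes act in muscle fibres. Rbm24 (chr13:46418102-46431099 of GRCm38.p6), an RNA-binding protein that directs muscle-specific splicing, stood at 406, 312, 296 and 424 CPM in Rosa26 1 to 4 and at 133, 139 and 193 CPM in dNdK 1 to 3. The 2 sets were well apart, with a log2 fold change of -1.21 ± 0.23, and of -1.41 ± 0.25 without dNdK 3. Its estimate was -2.04 in counts of the first strand alone and -0.70 in counts of the second. Rbm38 (chr2:173021891-173034734), a related RNA-binding protein and p53 target, had 432, 451, 510.2 and 419 CPM in Rosa26 and 304, 234 and 234 CPM in dNdK. All 3 dNdK libraries were low, with dNdK 1 the nearest, and the log2 fold change was -0.81 ± 0.20. Sox6 (chr7:115470872-116040776), which represses slow fibre genes in fast muscle, had 279.7, 201, 193 and 319 CPM in Rosa26 and 144, 87.7 and 128 CPM in dNdK. Library dNdK 2 was the lowest of the 3 and the log2 fold change was -1.05 ± 0.27. Ostn (chr16:27307641-27351209), which encodes osteocrin (musclin), a peptide that muscle secretes, had 325, 178, 220.0 and 153 CPM in Rosa26 and 59.5, 98.5 and 55.8 CPM in dNdK. The controls spread over a wide range and still lay above all 3, with a log2 fold change of -1.62 ± 0.33, and of -1.48 ± 0.37 without dNdK 3.

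A second set encodes proteins of adhesion and the cell surface. Mxra8 (chr4:155839680-155844102), an immunoglobulin-domain membrane protein, had 141, 136, 106 and 134 CPM in Rosa26 and 68.0, 53.5 and 50.2 CPM in dNdK. Its dNdK libraries lay close together and apart from the controls, giving 129 ± 15.9 CPM (SD, n = 4) against 57.3 ± 9.48 CPM (SD, n = 3) and a log2 fold change of -1.17 ± 0.21. Ntn4 (chr10:93641049-93745972), a netrin of basement membranes, had 27.3, 24.2, 32.2 and 44.3 CPM in Rosa26 and 12.7, 13.4 and 14.8 CPM in dNdK. The dNdK libraries were nearly level and the log2 fold change was -1.23 ± 0.26. Fermt2 (chr14:45458792-45530310), the integrin activator kindlin-2, had 370.5, 309.6, 302 and 379.7 CPM in Rosa26 and 165, 209 and 235 CPM in dNdK, with dNdK 1 the lowest and a log2 fold change of -0.74 ± 0.21. Sorbs3 (chr14:70180468-70212023), the adhesion adaptor vinexin, had 104, 115, 101 and 93.0 CPM in Rosa26 and 62.2, 45.8 and 63.3 CPM in dNdK. Here dNdK 2 was the lowest library, and the log2 fold change was -0.86 ± 0.20, and -0.95 ± 0.23 without dNdK 3. The other 4 genes were Tmc7, of the transmembrane channel-like family (-1.08), the kinase Mast4 (-1.18), the phosphate transporter Slc20a2 (-0.86) and the ubiquitin ligase Sh3rf2 (-1.10), given as log2 fold changes.

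The size of several leading lower estimates depended on the strand counted, though not their direction. Between first and second strand counts the log2 fold change was -1.63 and -0.26 for Fermt2, -1.81 and -0.35 for Sorbs3, -1.46 and -0.31 for Rbm38 and -1.59 and -0.67 for Sox6, as for Rbm24. The order was the reverse for Slc20a2 (-0.41 and -1.84) and Ntn4 (-0.74 and -1.92). The sizes of these 7 estimates are therefore uncertain, and the cause was not tested.

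**Figure D3:**
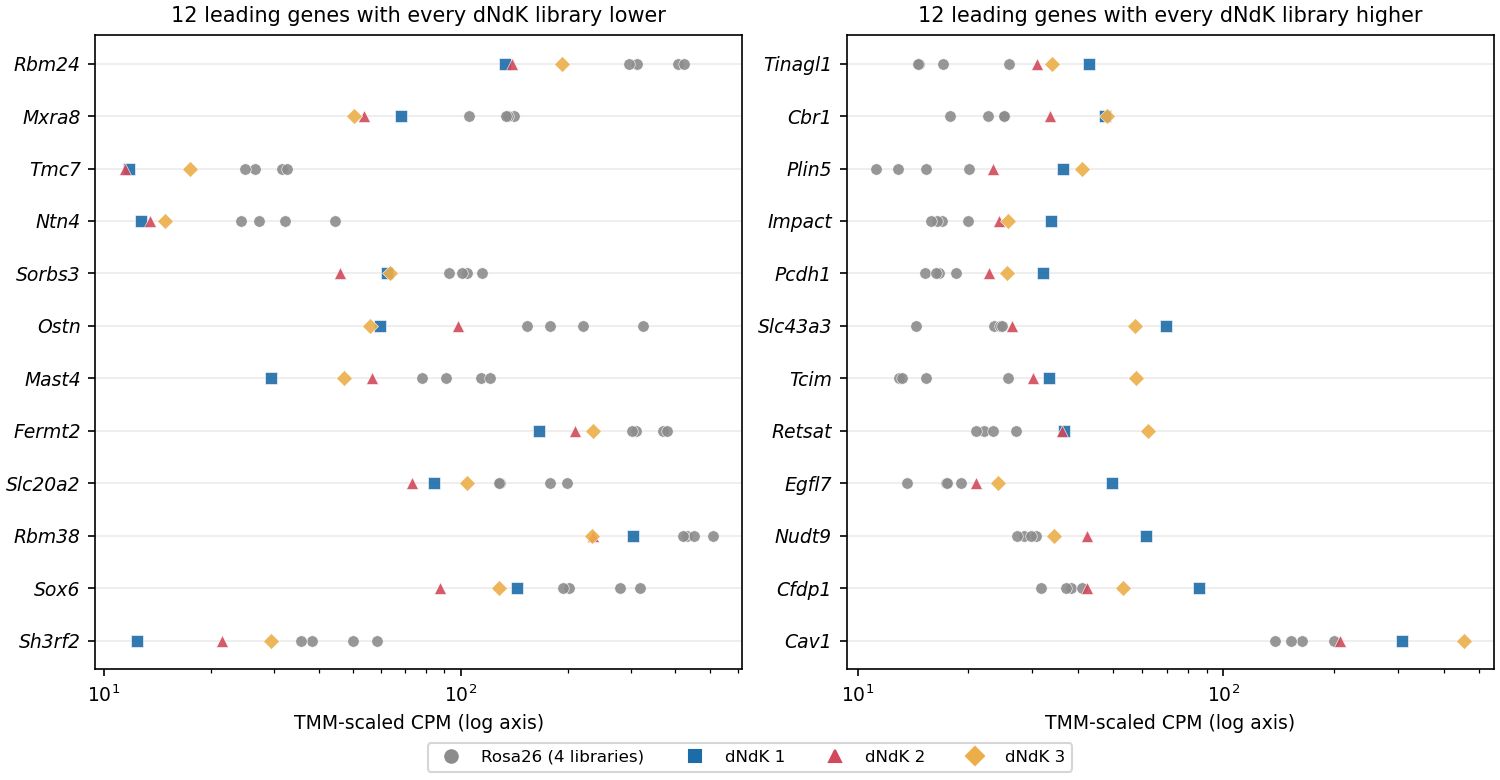
TMM-scaled CPM on a log axis for the 12 leading lower genes (left) and the 12 leading higher genes (right), with 1 point for each library. In all 24 genes the dNdK symbols lie on 1 side of the 4 grey Rosa26 points, and the gap is narrow for Cfdp1, Cav1 and Slc43a3, where dNdK 2 is next to the controls.

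The leading higher genes were chosen by the same rule, had the same adjusted p values in edgeR and lay above the controls in plain CPM too. Tinagl1 (chr4:130165600-130175122), a matrix protein of blood vessels, had 17.1, 14.6, 25.9 and 14.6 CPM in Rosa26 and 42.8, 30.9 and 33.9 CPM in dNdK. Library dNdK 1 was the highest and the log2 fold change was 0.99 ± 0.26, and 1.02 ± 0.30 without dNdK 3. Cbr1 (chr16:93607837-93610349), a carbonyl reductase, had 25.1, 22.7, 25.1 and 17.8 CPM in Rosa26 and 47.3, 33.5 and 48.1 CPM in dNdK, with dNdK 2 the nearest to the controls. Its means were 22.7 ± 3.43 CPM (SD, n = 4) and 43.0 ± 8.20 CPM (SD, n = 3), and its log2 fold change 0.92 ± 0.22, and 0.82 ± 0.25 without dNdK 3. Plin5 (chr17:56111597-56117606), a coat protein of lipid droplets that lie against mitochondria, had 15.3, 12.9, 11.2 and 20.1 CPM in Rosa26 and 36.3, 23.3 and 41.0 CPM in dNdK. It was high in dNdK 1 as well as in the fat-bearing dNdK 3, and its log2 fold change was 1.18 ± 0.28, and 0.99 ± 0.30 without dNdK 3.

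Others of the 12 are made by vessel cells, among other sources. Egfl7 (chr2:26581083-26592682), secreted by endothelial cells, had 19.1, 17.4, 17.6 and 13.6 CPM in Rosa26 and 49.6, 21.1 and 24.2 CPM in dNdK, so that dNdK 1 alone stood far above. Its log2 fold change was 0.90 ± 0.31, and 0.55 in second strand counts. Cav1 (chr6:17306335-17341328), the coat protein of caveolae in endothelial cells and adipocytes, had 164, 200.03, 153 and 138 CPM in Rosa26 and 308, 209 and 456 CPM in dNdK. Library dNdK 2 was only just above Rosa26 2, and the log2 fold change was 0.98 ± 0.27 with dNdK 3 and 0.65 ± 0.24 without it. Slc43a3 (chr2:84936545-84958509), a membrane transporter of purine bases, had 23.5, 24.4, 24.8 and 14.4 CPM in Rosa26 and 69.4, 26.4 and 57.2 CPM in dNdK, again with dNdK 2 next to the controls. The rest of the 12 were Retsat, the retinol saturase (0.95), Tcim (1.27), the translation regulator Impact (0.69), the protocadherin Pcdh1 (0.68), the ADP-ribose hydrolase Nudt9 (0.66) and Cfdp1 (0.71), given as log2 fold changes.

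Promoter sequences were read from the RefSeq promoter table of GRCm38.p6, which gives the 250 bases before to 50 after a start and held 15669 of the 19838 genes, 67 of the 87 higher and 180 of the 219 lower genes. On either strand, the CHR element TTTGAA was in 15.3% of all promoters, 10.2% of those of well-counted genes, 13.4% of the higher and 6.67% of the lower genes. The forkhead core TAAACA was in 11.4%, 8.44%, 11.9% and 7.22% of them. The E-box CAGCTG, bound by myogenic factors, was in 15.4%, 14.3% and 7.46% of the first 3 sets and in 27 of the 180 lower genes. The CArG box, the element of serum response factor in muscle genes, was in 1.40%, 1.61%, 1.49% and 2.78%, and was added after the data were seen. The motifs were searched separately, so letters may count for more than 1 of them, and a match is a description of letters, not of binding. The 250 bases before the start are shown 5′ to 3′ for a lower gene without any of these motifs (Mxra8, chr4:155839430-155839679, plus strand), a lower gene with a CArG box (Actc1, chr2:114052876-114053125, minus strand) and a higher gene with a forkhead core (Cbr1, chr16:93607587-93607836, plus strand). Capitals mark the motif, which begins at -47 in Actc1 and at -70 in Cbr1, counted from the start.
Mxra8: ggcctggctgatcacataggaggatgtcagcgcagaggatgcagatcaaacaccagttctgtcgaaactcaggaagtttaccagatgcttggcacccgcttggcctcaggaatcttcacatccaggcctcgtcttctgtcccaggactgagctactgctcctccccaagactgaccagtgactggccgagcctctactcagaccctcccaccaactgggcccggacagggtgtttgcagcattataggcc
Actc1: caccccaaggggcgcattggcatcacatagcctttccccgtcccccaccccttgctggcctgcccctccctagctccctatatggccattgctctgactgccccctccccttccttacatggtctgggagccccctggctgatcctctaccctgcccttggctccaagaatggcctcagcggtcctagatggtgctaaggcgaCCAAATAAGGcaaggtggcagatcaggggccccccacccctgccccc
Cbr1: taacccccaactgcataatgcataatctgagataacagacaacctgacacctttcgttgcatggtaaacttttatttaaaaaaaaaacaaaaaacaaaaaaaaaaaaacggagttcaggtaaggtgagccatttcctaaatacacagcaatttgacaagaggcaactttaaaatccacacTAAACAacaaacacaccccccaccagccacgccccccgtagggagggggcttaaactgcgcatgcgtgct

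Actc1 (chr2:114047282-114052875), the cardiac actin that is also made in immature and regenerating muscle fibres, had 846, 626, 484 and 538 CPM in Rosa26 and 326, 80.4 and 221 CPM in dNdK. All 3 dNdK libraries lay below the controls and dNdK 2 was the lowest by far. The means were 623 ± 159 CPM (SD, n = 4) and 209 ± 123 CPM (SD, n = 3), and the log2 fold change was -1.58 ± 0.43, and -1.63 ± 0.51 without dNdK 3 (edgeR adjusted p 0.656 and 0.973). Of the 10 genes of a heart muscle list 4 were tested and 3 had a negative estimate, and Mybpc3 had 0 counts in all 7 libraries. Sln, sarcolipin, a small inhibitor of the calcium pump, is the other well-counted member and had 27.3, 322, 102 and 20.4 CPM in Rosa26 and 11.0, 10.5 and 607 CPM in dNdK. It lay below every control in dNdK 1 and 2 and above them in dNdK 3, with a log2 fold change of 0.83 ± 1.36, and of -3.46 ± 1.13 without dNdK 3.

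Genes of glycolysis and glycogen were lower in dNdK by a small margin. This pathway turns glycogen and glucose into pyruvate and lactate and is the main quick fuel of fast fibres. Of its 26 well-counted members 6 lay below the controls in every dNdK library and 0 above, against 4.59% and 1.82% of all well-counted genes. Of 32 tested members 24 had a negative estimate, with a median log2 fold change of -0.24, and of -0.13 without dNdK 3, where the medians of all tested genes were 0.03 and -0.002 and those of well-counted genes -0.07 and -0.06. Genes of higher counts had lower medians, of -0.13 from 200 to 1000 CPM and -0.17 from 1000 CPM, in the 7 libraries. An unadjusted p under 0.05 was reached by 6 lower and 2 higher members, against 2.12% and 5.43% of all tested genes. The summed level was 65784 to 83839 CPM in Rosa26 and 72515, 63653 and 45355 CPM in dNdK 1 to 3, so the sums overlapped. The list score, the mean log2(CPM + 0.5) of the tested members relative to the 7 libraries, was 0.00 to 0.13 in Rosa26 and -0.14, -0.03 and -0.08 in dNdK 1 to 3, with no overlap. In this list, as in any taken from whole muscle, fewer cells of a type and less RNA per cell cannot be told apart.

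Among the glycogen genes, Phkb, a subunit of phosphorylase kinase, which starts glycogen breakdown, had 1343, 1128, 1041 and 1554 CPM in Rosa26 and 799, 938 and 736 CPM in dNdK, and a log2 fold change of -0.62 ± 0.22. All 3 dNdK libraries lay below every control. Gys1, the muscle glycogen synthase, had 611, 450.3, 472 and 545 CPM in Rosa26 and 370.0, 408 and 291 CPM in dNdK. It too was lowest in dNdK 3, with a log2 fold change of -0.54 ± 0.21. So enzymes of both glycogen breakdown and glycogen making were on the low side.

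Of the glycolytic enzymes, Pkm, the pyruvate kinase of muscle, had 5399, 5668, 4077 and 6140.5 CPM in Rosa26 and 3729, 3904 and 3045 CPM in dNdK, and its log2 fold change was -0.58 ± 0.22. Rosa26 3 was close above dNdK 2. Tpi1, the triosephosphate isomerase, had 2802, 2231, 2444 and 3236 CPM in Rosa26 and 1903, 2051 and 1433 CPM in dNdK, with a log2 fold change of -0.58 ± 0.22. Ldha, which makes lactate, had 5359, 6686, 5544 and 6284 CPM in Rosa26 and 4789, 5029 and 4195 CPM in dNdK, a log2 fold change of -0.35 ± 0.19, and overlapping groups in plain CPM. Hk1, a hexokinase found in most cell types, went the other way, with 2.29, 2.53, 3.99 and 4.48 CPM in Rosa26 and 9.28, 4.90 and 11.5 CPM in dNdK. It was the member with the smallest p, and all 3 dNdK libraries lay above the controls (log2 fold change 1.36 ± 0.39). Pgam1 and Eno1 had 0 counts in all 7 libraries.

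Calcium handling and excitation, which couple the nerve signal to contraction, gave as many lower genes as glycolysis. Of 29 well-counted members 6 lay below the controls in every dNdK library and 1 above, against 4.59% and 1.82% of all well-counted genes and 12.8% and 0% of those with at least 1000 CPM. The median log2 fold change of the 31 tested members was -0.44, and -0.26 without dNdK 3. An unadjusted p under 0.05 was reached by 4 lower members and 1 higher member, against 2.12% and 5.43% of all tested genes. Per library the list score was 0.06 to 0.24 in Rosa26 and -0.23, 0.00 and -0.40 in dNdK 1 to 3. All 3 dNdK scores were below the lowest control, but with dNdK 2 as the only dNdK library the median was -0.07.

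Cacna1s, the voltage sensor of the muscle calcium channel, had 1486, 1181, 1212 and 1594 CPM in Rosa26 and 1043, 1025 and 651 CPM in dNdK. Library dNdK 3 was far below the other 2, and the log2 fold change was -0.59 ± 0.24, and -0.41 ± 0.21 without it. Cacng1, the gamma subunit of the same channel, had 429.9, 474, 359 and 351 CPM in Rosa26 and 303, 268 and 259 CPM in dNdK, and was little different without dNdK 3 (log2 fold change -0.54 ± 0.20 and -0.51 ± 0.22). Another subunit, Cacna2d1, had 978, 664, 678 and 1122 CPM in Rosa26 and 659, 649 and 459 CPM in dNdK, with a log2 fold change of -0.55 ± 0.26, and its groups overlapped in plain CPM. Each of these subunits is named by the rule of groups that do not overlap, so their shared direction says nothing of subunits not named.

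Casq1, the calcium store protein of fast fibres, had 4750.0, 3663, 3811 and 3290.2 CPM in Rosa26 and 3165, 2932 and 2488 CPM in dNdK, and a log2 fold change of -0.44 ± 0.21. Ppp3ca, the catalytic subunit of the calcium-activated phosphatase calcineurin, had 357, 301, 287 and 246 CPM in Rosa26 and 188, 226 and 183 CPM in dNdK. Its 3 dNdK libraries were all low, with a log2 fold change of -0.58 ± 0.20, and of -0.53 ± 0.23 without dNdK 3. Stim1, a calcium sensor, had the same order with a small difference (log2 fold change -0.31 ± 0.18) and overlapped in plain CPM. The exception was Atp2a2, the calcium pump of slow fibres, with 72.4, 82.7, 79.6 and 91.2 CPM in Rosa26 and 129.9, 92.5 and 168 CPM in dNdK. Library dNdK 2 was barely above Rosa26 4, and the log2 fold change was 0.68 ± 0.23, and 0.44 ± 0.22 without dNdK 3. The pump of fast fibres, Atp2a1, had 31488 to 39307 CPM in Rosa26 and 31946, 27133 and 16473 CPM in dNdK, with groups that overlapped (log2 fold change -0.55 ± 0.26).

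**Figure D4:**
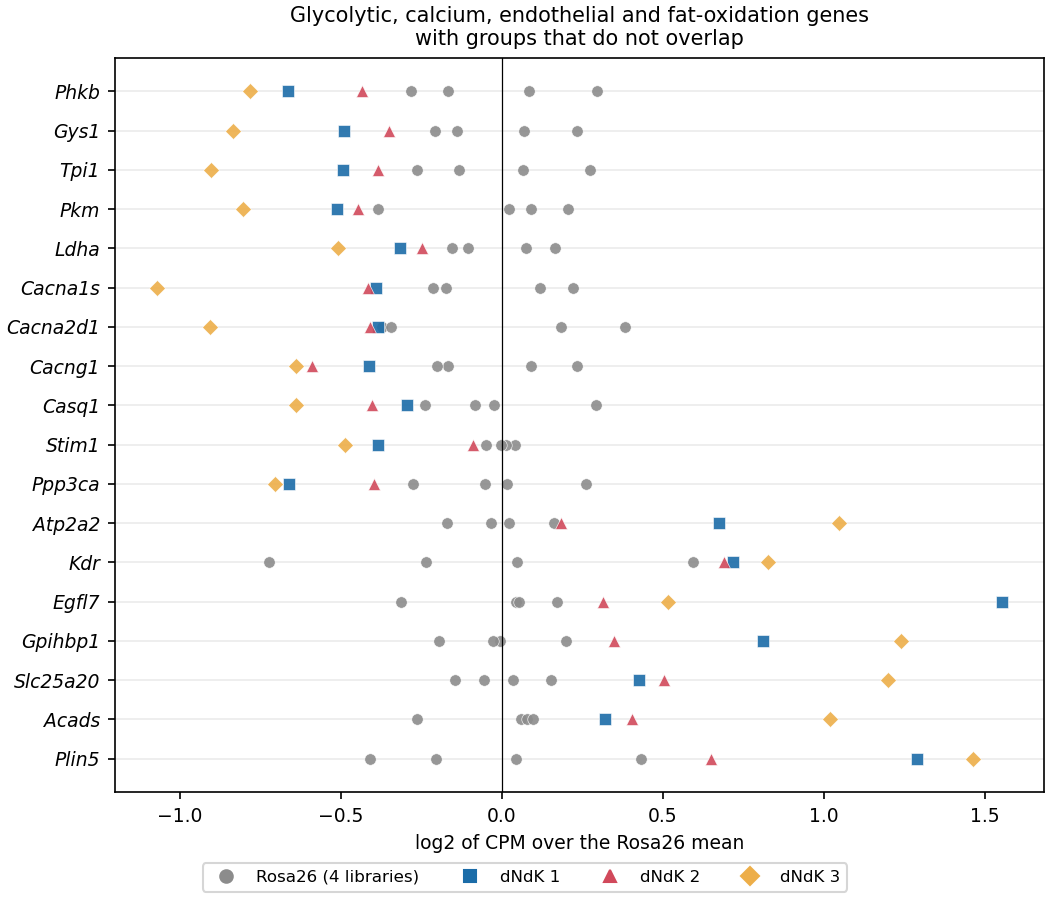
The log2 of each library's CPM over the Rosa26 mean, for members of the glycolysis and glycogen, calcium handling, endothelial, fatty acid oxidation and lipid storage lists whose groups do not overlap (those of Ldha, Cacna2d1 and Stim1 overlap in plain CPM; not every such member is drawn). Phkb to Ppp3ca lie to the left of the controls and Atp2a2 to Plin5 to the right, and dNdK 3 is the farthest library in most rows while Egfl7 is farthest in dNdK 1.

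Fast fibre genes gave no common direction without dNdK 3, and slow fibre genes spread widely within the controls. The fast fibre list, of myosins, troponins and partners that set fast contraction, had a median log2 fold change of -0.25 over 31 members, and of -0.05 without dNdK 3, and 3 of its 29 well-counted members (Cacng1, Casq1 and Ldha) lay below the controls in every dNdK library, against 4.59% of all well-counted genes. Myh4, the myosin of the fastest fibres, had 45766, 35113, 34558 and 44778 CPM in Rosa26 and 34854, 29006 and 26408 CPM in dNdK, and its groups overlapped. The slow fibre list had medians of 0.05 and 0.44 in the same fits, with 10 and 14 of its 17 tested members positive. Its score, however, ran from -0.99 to 0.83 in Rosa26, wider than any gap between the groups. Myl2, a slow fibre myosin light chain, showed this with 0.574, 15.8, 5.29 and 6.72 CPM in Rosa26 and 77.2, 15.9 and 0.313 CPM in dNdK, and its sign turned in limma-voom. Myh7 had 0 counts in all 7 libraries.

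Endothelial genes, which mark the lining of vessels and capillaries, were mostly higher in estimate. Of 25 tested members 23 had a positive log2 fold change, with a median of 0.54, and all 25 had one without dNdK 3, with a median of 0.42. With dNdK 2 as the only dNdK library the median was 0.28. At an unadjusted p under 0.05 stood 10 members, all higher, and 6 without dNdK 3, against 5.43% and 2.33% of all tested genes. Of 15 well-counted members 3 lay above the controls in every dNdK library and 0 below, against 1.82% and 4.59% of all well-counted genes. Among these 3, Egfl7 had a Rosa26 mean below 20 CPM and was well counted only through the dNdK group, so the count is a description. The list score was -0.44 to 0.07 in Rosa26 and 0.51, 0.00 and 0.40 in dNdK 1 to 3, so that dNdK 2 fell inside the controls' range. Fabp4 and Cd36, which are in the list, are also made by adipocytes: Fabp4 had 187 to 380.2 CPM in Rosa26 and 269.7, 528 and 5822 CPM in dNdK.

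Kdr, the main receptor of endothelial cells for VEGF, had 14.9, 25.5, 37.2 and 20.9 CPM in Rosa26 and 40.5, 39.8 and 43.7 CPM in dNdK. The dNdK libraries were level while the controls varied, and the log2 fold change was 0.74 ± 0.29, and 0.69 ± 0.33 without dNdK 3. Gpihbp1, which holds lipoprotein lipase on capillary walls, had 31.4, 35.8, 41.3 and 35.3 CPM in Rosa26 and 63.1, 45.8 and 84.8 CPM in dNdK, with a log2 fold change of 0.85 ± 0.24, and of 0.59 ± 0.23 without dNdK 3. Nos3, the endothelial nitric oxide synthase, had 3.16, 3.92, 2.84 and 3.41 CPM in Rosa26 and 9.59, 4.54 and 7.13 CPM in dNdK. It lay above the controls in all 3, most of all in dNdK 1, with a log2 fold change of 1.08 ± 0.33.

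A list of angiogenesis and shear response genes went the same way by a smaller amount, with a median log2 fold change of 0.23 over 31 members, and of 0.26 over 30 without dNdK 3. Leaving out any 1 library gave 0.17 to 0.42, with the highest value without Rosa26 3. Dll4, the Notch ligand of sprouting vessels, had 6.45, 8.89, 9.74 and 7.50 CPM in Rosa26 and 18.2, 16.0 and 11.7 CPM in dNdK, and was as high in dNdK 1 and 2 as in dNdK 3 or higher (log2 fold change 0.90 ± 0.26, and 1.06 ± 0.27 without dNdK 3). S1pr1, a receptor that steadies vessel walls, had 45.3, 46.5, 46.6 and 54.0 CPM in Rosa26 and 134, 52.5 and 94.3 CPM in dNdK, and overlapped because Rosa26 4 was above dNdK 2. Sema3c, a semaphorin guidance factor, was the 1 well-counted member that lay below, with 35.3, 45.6, 34.1 and 46.8 CPM in Rosa26 and 21.6, 28.6 and 22.3 CPM in dNdK (log2 fold change -0.74 ± 0.22). Pericyte and smooth muscle genes had a median of 0.11, of 0.03 without dNdK 3 and of -0.05 with the white adipocyte score as a covariate.

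Fat genes followed dNdK 3. The white adipocyte list had a median log2 fold change of 3.06 over 20 tested members and of 0.14 without dNdK 3. Of its 17 well-counted members 0 kept the groups apart, against 1.82% above and 4.59% below of all well-counted genes. Thrsp, a lipogenic factor of adipocytes, had 28.7, 34.7, 30.7 and 24.7 CPM in Rosa26 and 21.3, 30.7 and 2117 CPM in dNdK, and its sign turned without dNdK 3. Lipogenesis and lipid storage had medians of 1.36 and 0.06 in the same fits. Ucp1, the uncoupling protein of brown fat, had 0.287, 0.349, 0.614 and 0.487 CPM in Rosa26 and 6.19, 0.817 and 599.9 CPM in dNdK, so nearly all of it was in dNdK 3, and it was too low in the others to be tested. Mgll, the monoglyceride lipase, kept the groups apart, with 11.5, 15.8, 16.2 and 8.67 CPM in Rosa26 and 19.0, 19.3 and 85.9 CPM in dNdK, and had a log2 fold change of 1.67 ± 0.53, and of 0.55 ± 0.30 without dNdK 3.

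Fatty acid oxidation, the mitochondrial use of fat as fuel, had a median log2 fold change of 0.53 over 29 tested members, with 25 positive, and of 0.21 without dNdK 3, with 20 positive. With the white adipocyte score as a covariate the median was 0.24. The list score was -0.27 to -0.03 in Rosa26 and -0.13, 0.10 and 0.68 in dNdK 1 to 3, which sets dNdK 1 among the controls and dNdK 3 far above. Of 28 well-counted members 2 lay above the controls in every dNdK library and 0 below, against 1.82% and 4.59% of all well-counted genes. Slc25a20, the carnitine carrier that brings fatty acids into mitochondria, had 55.7, 59.2, 63.1 and 68.4 CPM in Rosa26 and 82.7, 87.4 and 142 CPM in dNdK. It was higher in dNdK 1 and 2 as well as dNdK 3 (log2 fold change 0.76 ± 0.23, and 0.46 ± 0.20 without dNdK 3). Acads, the dehydrogenase of short-chain fatty acids, had 86.5, 87.7, 88.8 and 69.3 CPM in Rosa26 and 104, 109.9 and 168 CPM in dNdK, and its log2 fold change of 0.62 ± 0.22 became 0.36 ± 0.21 without dNdK 3.

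The respiratory chain and the TCA cycle, the later steps of fuel use, had small positive medians. These were 0.09 and 0.11 for the respiratory chain, with and without dNdK 3, and 0.13 and 0.05 for the TCA cycle. The respiratory chain median was -0.042 to 0.13 and the TCA cycle median 0.04 to 0.19 when any 1 library was left out. Well-counted genes, which make up nearly all of both lists, had medians of -0.07 and -0.06. With all 7 libraries 2 of 37 well-counted respiratory chain members lay above the controls and 1 below, against 1.82% and 4.59% of all well-counted genes. Without dNdK 3 there were 8 above and 1 below, against 4.72% and 7.82%. Ndufs1, the largest subunit of complex I, was the 1 lower member with all 7 libraries, with 735, 859.8, 838 and 1011 CPM in Rosa26 and 504, 478 and 731 CPM in dNdK and a log2 fold change of -0.59 ± 0.23, and of -0.82 ± 0.21 without dNdK 3, though in plain CPM its groups overlapped. Its estimate was -1.11 in first strand and -0.26 in second strand counts. Cox4i1, a subunit of complex IV, was above the controls in every dNdK library, with 599.7, 661, 703 and 733 CPM in Rosa26 and 744, 902 and 843 CPM in dNdK (log2 fold change 0.30 ± 0.18). Uqcrq of complex III (0.34) and Suclg1 of the TCA cycle (0.17) shared that order with small log2 fold changes. The upstream regulators, PPAR, PGC-1 and ERR, had a median of -0.24, with Rxra, the partner receptor, at 455, 308, 237 and 471 CPM in Rosa26 and 225, 265 and 211 CPM in dNdK. Rxra overlapped between the groups because dNdK 2 was above Rosa26 3.

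**Figure D5:**
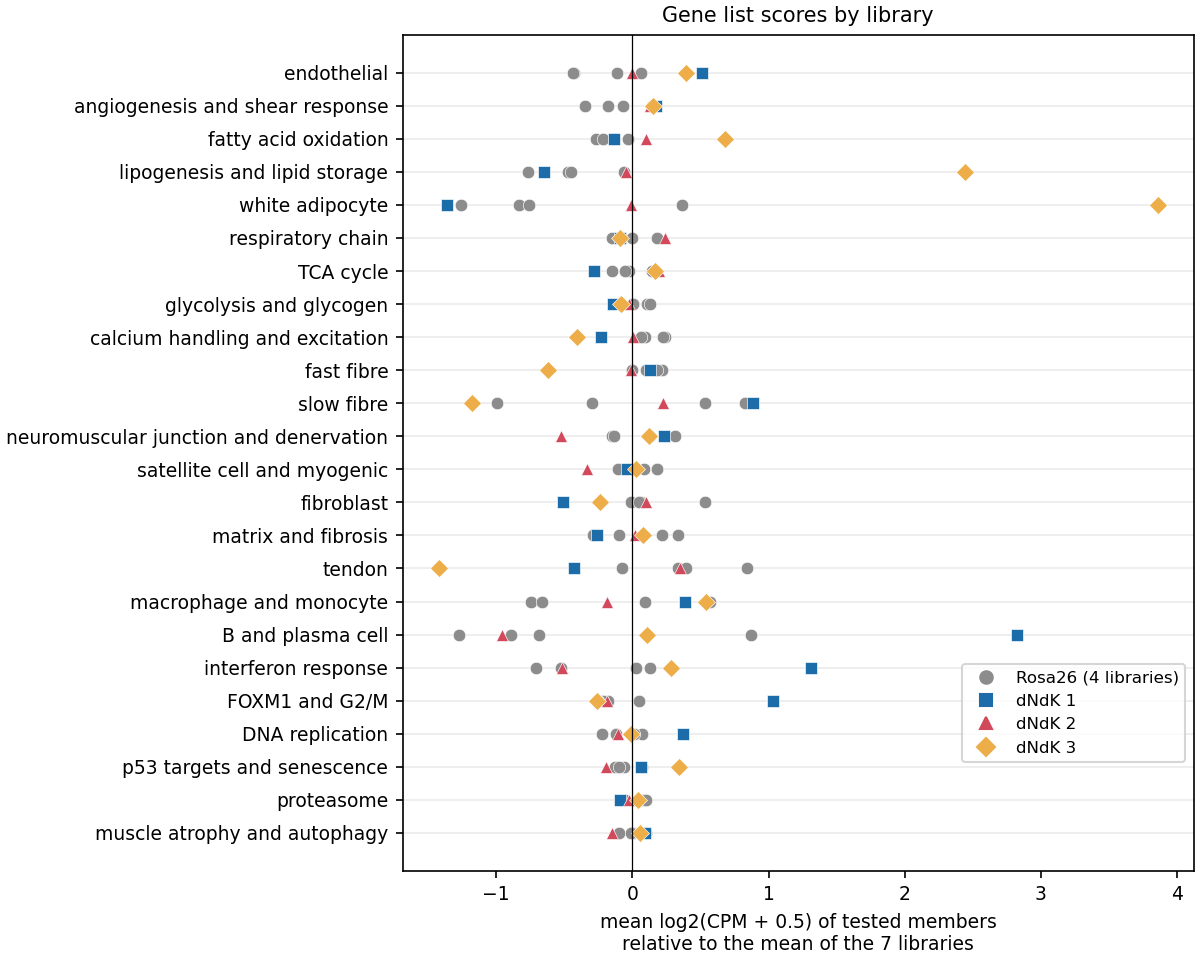
Scores of gene lists in the 7 libraries, each the mean log2(CPM + 0.5) of its tested members relative to the mean of the libraries. The white adipocyte and lipogenesis scores set dNdK 3 apart at 3.86 and 2.44, the B and plasma cell, interferon and G2/M scores set dNdK 1 apart at 2.83, 1.31 and 1.03, and the calcium handling score has all 3 dNdK libraries below the controls.

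Interferon and plasma cell genes were highest in dNdK 1. The interferon response list had a median log2 fold change of 0.97 over 27 tested members with 24 positive, and of -0.05 without dNdK 1. Its score was 1.31 in dNdK 1, -0.52 in dNdK 2, 0.29 in dNdK 3 and -0.71 to 0.13 in Rosa26. Irf1, an interferon-induced transcription factor, had 18.4, 27.0, 16.6 and 14.03 CPM in Rosa26 and 62.5, 26.5 and 28.9 CPM in dNdK. Jchain, the joining chain of secreted antibodies made by plasma cells, had 2.29, 3.05, 1.15 and 1.56 CPM in Rosa26 and 59.1, 1.45 and 6.57 CPM in dNdK, and Ccl8, a chemokine of macrophages, had 0.287, 3.92, 1.53 and 1.56 CPM in Rosa26 and 69.1, 1.09 and 9.88 CPM in dNdK. In all of these dNdK 2 lay within the controls' range, and the defining B cell marker Cd79a had 0 counts in all 7 libraries. The B and plasma cell list had a median of 1.81 over 7 tested members, and of -0.32 without dNdK 1. Macrophage and monocyte genes were highest in dNdK 1 in their sum but not in their score. They summed to 98.8 to 244 CPM in Rosa26 and to 290, 152 and 240 CPM in dNdK 1 to 3. Of 16 tested members 11 were higher and 5 lower, with a median of 0.51, of 0.26 without dNdK 3 and of 0.55 without dNdK 1 (0.26 to 0.80 when any 1 library was left out). Their score was highest in Rosa26 2 at 0.57, then in dNdK 3 at 0.54 and dNdK 1 at 0.39. C1qb, a complement subunit, had 4.88, 10.3, 4.22 and 10.9 CPM in Rosa26 and 28.5, 8.63 and 13.3 CPM in dNdK.

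Cell cycle genes, the known targets of FOXM1, were near the floor. Of the 40 genes of a FOXM1 and G2/M list 14 were tested and 0 were well counted, and Ccnb1, Cdc25c, Nusap1, Cks2 and Hmgb2 had 0 counts in all 7 libraries. The median log2 fold change was 0.66, and 0.10 without dNdK 1. Its sign turned in second strand counts and with a filter of 50 counts in at least 3 libraries. With dNdK 2 as the only dNdK library it was -0.16. The list summed to 36.0 to 70.5 CPM in Rosa26 and to 123, 40.5 and 30.3 CPM in dNdK 1 to 3, so only dNdK 1 lay above the controls. Top2a, the topoisomerase of dividing cells, had 0.143, 0.959, 0.614 and 0 CPM in Rosa26 and 7.11, 0.182 and 0.813 CPM in dNdK. Cdca8, a mitotic kinase partner, had 0.287, 0.959, 0.691 and 0.779 CPM in Rosa26 and 6.34, 1.54 and 0.625 CPM in dNdK, while Aurka, a mitotic kinase, had 23.5, 41.1, 15.3 and 11.5 CPM in Rosa26 and 7.58, 17.6 and 3.502 CPM in dNdK. Library dNdK 1 was thus high for Top2a and Cdca8 and low for Aurka. DNA replication genes had a median of 0.05, and of -0.08 without dNdK 1, and Rpa1, a single-strand binding protein, was their 1 well-counted member below the controls (log2 fold change -0.36 ± 0.20).

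Senescence is a lasting arrest of the cell cycle that FOXM1 is known to oppose in cultured cells. Genes of p53 targets and senescence had a median log2 fold change of 0.21 (0.17 to 0.33 when any 1 library was left out). Of 11 well-counted members 0 kept the groups apart, against 1.82% above and 4.59% below of all well-counted genes. With so few members, 0 is near those shares. Cdkn1a, the p21 cell cycle inhibitor, had 26.0, 139, 96.5 and 37.6 CPM in Rosa26 and 223, 17.8 and 90.6 CPM in dNdK, widely spread in both groups, and its sign turned without dNdK 1. Secreted factors of senescent cells had a median of 0.13, and of -0.03 without dNdK 1.

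Fibroblast and tendon genes were mostly lower in estimate, with wide spreads. The fibroblast list had a median log2 fold change of -0.43 with 18 of 20 members negative, and the tendon list -0.99 with 8 of 9 negative. Without dNdK 3 the medians were -0.37 and -0.51, and with dNdK 2 as the only dNdK library -0.04 and -0.16. Leaving out any 1 library gave -0.53 to -0.26 and -1.65 to -0.51, and the fibroblast value nearest to 0 was that without Rosa26 2, whose fibroblast score was apart from the other controls. The summed level of the fibroblast list did not follow its median, at 1539 to 2115 CPM in Rosa26 and 1241, 2055 and 2789 CPM in dNdK 1 to 3. Much of this lay in single libraries. Col1a1, the main chain of collagen I, had 95.1, 119, 78.6 and 448 CPM in Rosa26 and 58.9, 97.2 and 65.4 CPM in dNdK, and Fn1, fibronectin, had 63.5, 118, 34.3 and 676 CPM in Rosa26 and 42.4, 44.0 and 13.7 CPM in dNdK. In both the high value of Rosa26 4 set the control mean. Comp, a tendon matrix protein, had 6.74, 4.62, 8.21 and 25.9 CPM in Rosa26 and 1.08, 7.27 and 0.438 CPM in dNdK, high in Rosa26 4 and low in dNdK 1 and 3. The matrix and fibrosis list as a whole was split, with 18 members higher and 21 lower and a median of -0.06, which became 0.05 without scaling factors. Its members Timp3, a protease inhibitor, with 115, 82.8, 97.4 and 88.0 CPM in Rosa26 and 129, 132 and 179 CPM in dNdK, and Serpinh1, a collagen chaperone (log2 fold change 0.38 ± 0.20), lay above the controls in every dNdK library.

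The lists that follow had at most 1 well-counted member whose groups did not overlap in each direction. Over all well-counted genes the shares were 1.82% above and 4.59% below. Ranges are over fits that each leave out 1 library. Immediate early genes, which a cell switches on within minutes of a stimulus or of dissection, had a median log2 fold change of 0.25 (0.15 to 0.36). Zfp36, which degrades inflammatory transcripts, had 24.4, 32.1, 14.8 and 17.8 CPM in Rosa26 and 40.5, 37.2 and 56.6 CPM in dNdK, and Ier2 had 3.30, 5.41, 4.07 and 7.60 CPM and 9.28, 9.26 and 13.1 CPM. Both lay above the controls in every dNdK library (log2 fold changes 1.01 ± 0.30 and 1.05 ± 0.33). Antioxidant genes had a median of 0.25 (0.067 to 0.28), with the lowest value without dNdK 3. Prdx5, a mitochondrial peroxiredoxin, had 176, 125, 139.6 and 204 CPM in Rosa26 and 279, 216 and 249 CPM in dNdK, above the controls throughout and little different without dNdK 3 (log2 fold change 0.62 ± 0.22 and 0.61 ± 0.26). Proteasome genes had a median of -0.01, which became 0.11 without scaling factors, and Psmd7, a subunit of its cap, was just below the controls (-0.30), though it overlapped them in plain CPM. Muscle atrophy and autophagy genes had a median of 0.06 (-0.095 to 0.16), neuromuscular junction genes of -0.06 (-0.29 to 0.076) and insulin and growth signalling genes of -0.18 (-0.16 to -0.077). Amino acid and polyamine genes had a median of 0.22, of 0.055 without dNdK 3 and of -0.004 without dNdK 2. Myogenic, heat shock and clock genes had medians of -0.09, -0.03 and -0.14, which became 0.08, 0.09 and 0.001 without scaling factors. Mef2c, a transcription factor of muscle genes, had 518, 554, 575 and 377 CPM in Rosa26 and 243, 434 and 313 CPM in dNdK, and overlapped through dNdK 2. Il15, a cytokine of muscle fibres, had 15.9, 19.97, 22.7 and 11.2 CPM in Rosa26 and 8.04, 13.4 and 5.44 CPM in dNdK, low in dNdK 1 and 3.

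Some of the highest folds came from genes on in some dNdK libraries and off in others, chosen after their values were seen. Cops8, a subunit of the COP9 signalosome, had 4, 11, 4 and 1 counts in Rosa26 1 to 4 and 1, 938 and 828 counts in dNdK 1 to 3. Its log2 fold change was 6.54 ± 1.34, and dNdK 1 was as low as the controls. Rtraf, an RNA transcription and translation factor, had 8.03, 9.85, 8.90 and 8.48 CPM in Rosa26 and 8.97, 56.6 and 57.8 CPM in dNdK, with the same pattern over the libraries. Gpr157, an orphan receptor, repeated it, with 0.861, 0.698, 1.07 and 0.585 CPM in Rosa26 and 0.155, 25.5 and 11.5 CPM in dNdK. Rex1bd was on in dNdK 2 alone, with 6, 29, 33 and 11 counts in Rosa26 and 9, 1323 and 20 in dNdK. In each of these 4 genes the groups overlapped through dNdK 1 (and for Rex1bd through dNdK 3), which was at the level of the controls. Without dNdK 1 edgeR called Cops8, Rtraf and Gpr157 at adjusted p values of 0.00276, 0.00276 and 0.00951, and in DESeq2 with all 7 libraries they had 0.0349, 0.0254 and 0.0238.

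The genotype effect was also set against that in aorta, in 1 edgeR fit of all 13 libraries taken as independent. The aorta libraries held RNA of brown fat, with Ucp1 at 5084 to 9346 CPM in all 6, and Tagln, a smooth muscle marker, reached no more than 0.0742 CPM, while Myh11, the smooth muscle myosin, had 68.5 to 109 CPM. Of 12318 genes 0 were called for a difference in effect between the tissues, with a smallest adjusted p of 0.583. The aorta dNdK group had 2 libraries, so 0 calls does not show that the effects were alike. At an unadjusted p under 0.05, 808 genes (6.56%) had a higher and 236 (1.92%) a lower effect in muscle, 1044 in all (8.48%). Leaving out 1 muscle library gave 825 genes (without Rosa26 3) to 1712 (without dNdK 2). Leaving out 1 aorta library gave 531 of 13022 genes tested (without aorta dNdK 2) to 1136 of 12201 (without aorta Rosa26 1). Without aorta dNdK 1 there were 697 of 12969, so the number depended on single aorta libraries too. The 5 genes with the smallest p were Fam57b, Ptbp3, Sorbs3, Epm2aip1 and Tmc7, all at an adjusted p of 0.583. Sorbs3 was lower in dNdK muscle and had a log2 fold change of 0.39 ± 0.21 in aorta, a difference of -1.27 ± 0.28. Fam57b, a ceramide synthase family gene, had 89.5, 73.8, 90.2 and 72.4 CPM in Rosa26 muscle and 55.8, 48.0 and 32.8 CPM in dNdK muscle. In aorta its log2 fold change was 0.98 ± 0.26, with 51.6 to 85.3 CPM in Rosa26 and 113 and 149 CPM in dNdK. Ptbp3, a splicing regulator, went the other way, with 6.02, 9.42, 5.98 and 8.18 CPM in Rosa26 muscle, 18.1, 12.0 and 21.0 CPM in dNdK muscle and a log2 fold change of -0.59 ± 0.27 in aorta. Of the leading muscle genes, Mxra8 was lower in aorta as well (log2 fold change -0.71 ± 0.27), and Cbr1 had 0.04 ± 0.24 there.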

How the data were processed

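Gene counts of 7 gastrocnemius and 6 aorta libraries were used. Each deposited table holds raw read counts per gene of 1 library. The submitters' processing notes name STAR 2.5.2b, the builds mm10 and GRCm38.p6, edgeR 3.28.1 and limma 3.42.2; how reads were filtered is not given in the sources used here. Counts of both strands together were taken, and the lines for unmapped, multimapping, featureless and ambiguous reads, which name no gene, were left out. Reads assigned to genes were 89.3% to 91.1% of each muscle library. Reads carry no molecular identifiers.

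Low genes were dropped with filterByExpr (min.count 10 and min.total.count 15) and libraries were scaled with TMM in R 4.3.3 with edgeR 4.0.16. Each gene then had the quasi-likelihood test, adjusted by Benjamini-Hochberg over all genes tested, at a threshold of 0.05. The SE is the log2 fold change divided by the root of its F statistic. Groups came from the sample titles. The pipeline was tested on simulated data. The pseudocount of list scores was 0.5 CPM.

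The members and the 39 gene lists were chosen with earlier results of these data known. The genes named are Foxm1, the 12 leading genes per direction, up to 3 genes of each list by unadjusted p, list members that are well counted (mean of at least 20 CPM) with groups that do not overlap, the 5 genes with the smallest p for the tissue difference, and abundant markers. Unnamed predicted genes were counted only, and a few genes that the rule names are not reported here. Cops8, Rtraf, Gpr157 and Rex1bd were chosen after their values were seen. Alternatives were RLE and no scaling, DESeq2 1.42.0, limma-voom (limma 3.58.1), other filters, each strand, a replicate block, the adipocyte score as a covariate and leaving libraries out.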

Additional observations from a re-analysis of the deposited data

Results flagged for a closer look

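In 144 sets of 4 Rosa26 values checked, 8 had a library whose gap to the nearest of the others took more of the whole range than Dixon's 95% critical value allows, where chance gives about 1 in 20 sets. Rosa26 4 was the library apart in 7 of the 8. It was high for Col1a1 at 448 CPM (the others 78.6 to 119), for Fn1 at 676 CPM (34.3 to 118), for Comp at 25.9 CPM (4.62 to 8.21) and for S1pr1 at 54.0 CPM (45.3 to 46.6). It was low for Slc43a3 at 14.4 CPM (23.5 to 24.8) and for Acads at 69.3 CPM (86.5 to 88.8). Its score for PPAR, PGC-1 and ERR regulators was 0.18 (0.02 to 0.03). Rosa26 2 had a fibroblast score of 0.54 (-0.01 to 0.07). The groups of 3 dNdK libraries were too small for this check.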

How the results depend on the processing

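The 7-library edgeR test called 0 genes; DESeq2 called 7, edgeR called 0 to 3 when 1 library was left out (3 without dNdK 1, 0 without any other), and 6 without both dNdK 1 and dNdK 3, a setting chosen after seeing the data, as was the fit without scaling factors. Same-numbered Rosa26 and dNdK libraries had correlations of 0.44, 0.09 and 0.007 in their deviations, against -0.41 to 0.33 for the other pairs. These values do not settle whether the numbers are pairs. The titles state no pairing, so none was taken. With the replicate block edgeR called 0 genes and 389 had an unadjusted p under 0.05, against 792.

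Of well-counted genes, 87 lay above the controls and 219 below. A minimum of 10 CPM gave 143 above, and 50 CPM gave 32; plain CPM gave 210 above and 100 below; first strand counts gave 145 below; leaving out 1 library gave 117 to 319 above and 272 to 734 below, since fewer libraries overlap less. Without dNdK 1 and 3 they were 786 and 947.

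The endothelial median of 0.54 was 0.28 without dNdK 1 and 3. The fatty acid oxidation median of 0.53 was 0.24 with the adipocyte covariate and 0.21 to 0.74 when 1 library was left out. The glycolysis median of -0.24 was -0.33 with the replicate block, -0.35 and -0.15 in first and second strand counts, -0.17 with the adipocyte covariate, -0.13 without scaling factors, -0.10 without dNdK 1 and 3, and -0.34 to -0.13 when 1 library was left out. The calcium handling median of -0.44 was -0.59 to -0.26 when 1 library was left out and -0.070 without dNdK 1 and 3.

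Signs turned for Thrsp without dNdK 3 (-0.19), Myl2 in limma-voom (-0.065), Rex1bd without dNdK 2 (-0.43), Mzb1 and Cdkn1a without dNdK 1 (-0.15 and -0.48) and Cdkn1a with the replicate block (-0.019). Without dNdK 1 and 3 they turned for Jchain (-0.46), Mzb1 (-0.068), Ccl8 (-0.76), Depp1 (-0.19), Ddit4 (-0.12), Top2a (-1.25) and Cdkn1a (-2.07). Leaving out 1 library at a time gave at most 5.17 for Thrsp, 3.92 for Mzb1, 1.06 for Cdkn1a and 5.07 for Rex1bd. The cause of these moves was not tested. With 3 and 4 libraries, and with dNdK 1 and dNdK 3 each apart from the rest, differences of the size seen here could not be separated from the spread between libraries, and genes of a few counts, such as Foxm1, could not be compared.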
